A study of Mus musculus with 46 samples.

Results

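Glutathione transferases (GST), UDP-glucuronosyltransferases (UGT) and cytosolic sulfotransferases (SULT) were followed across 13 mouse liver libraries. Genes were taken by symbol: the alpha, kappa, mu, omega, pi and theta classes of GST, the Ugt1, Ugt2 and Ugt3 families, and Sult1 to Sult5. Genes were then selected on their measured liver levels: a gene was kept when its mean reached 1 CPM (read counts scaled to the library's total count) in at least 1 of the 3 liver groups. This gave 47 genes of 68 with such symbols, among 55487 genes listed: 19 of 22 GST, 15 of 21 UGT and 13 of 25 SULT. Being present in liver is therefore not a result here. Of the 47, 43 reached 1 CPM in all 3 groups, Gsta1, Sult3a1 and Ugt2b37 in 2, and Ugt2b38 in the controls only. Gsta1 alone was below 1 CPM in controls and entered through the knockout groups, so its higher level there is part of how it was chosen. Just inside the threshold, the highest group mean was 3.44 CPM for Gstp2, 3.69 CPM for Ugt2b37 and 4.46 CPM for Ugt2b38. Just outside it, that mean was 0.995 CPM for Ugt1a7c, 0.437 CPM for Gsto2 and 0.422 CPM for Sult2b1.

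These enzymes attach a polar group to drugs, hormones and toxins so that the product can be carried out of the cell. GST join electrophiles to glutathione, UGT transfer glucuronic acid from UDP-glucuronic acid in the endoplasmic reticulum, and SULT transfer sulfate from the donor PAPS in the cytosol. Hepatocytes make most of them, and in mice many are controlled by sex, by nuclear receptors such as CAR, PXR and FXR, and by the oxidant-responsive factor NRF2.

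The study asked how signals from damaged mitochondria affect the identity of metabolic tissues. The livers were 6 controls, 4 labelled Mfn DKO and 3 labelled Tfam KO. Mfn1 and Mfn2, the mitofusins, fuse mitochondrial outer membranes, and Tfam packages mitochondrial DNA and helps to start its transcription. For comparison, islets of Langerhans labelled Tfam control (8 samples, 5 female and 3 male) and Tfam KO (6 samples, 4 female and 2 male) were used. The sample names of the livers begin with the letters AAV. The labels give no age, strain, sex, vector or promoter for the livers, so which liver cells lost the genes, and when, is not stated. Replicates are labelled as biological, and nothing more says whether each came from its own animal.

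Liver libraries held 41961114 to 56894510 counts. Tfam was at 58.9 ± 4.02 CPM in control livers (SD, n = 6) and 14.7 ± 1.42 CPM in Tfam KO livers (n = 3). In Mfn DKO livers (n = 4), Mfn1 was at 20.2 ± 4.30 CPM against 80.8 ± 7.58 CPM, and Mfn2 at 38.1 ± 5.35 CPM against 156.7 ± 28.4 CPM. Xist RNA, which comes from the inactive X chromosome, was at 343 CPM or more in 7 livers (control 3, 4 and 5, Mfn DKO 2 and 4, Tfam KO 2 and 3) and below 1 CPM in the other 6, which held the Y-linked Ddx3y. The summed level of 7 hepatocyte markers, none of them at 0 in any group, lay between 92807 and 137269 CPM in controls and between 78513 and 97517 CPM in Mfn DKO livers. In Tfam KO livers 1, 2 and 3 it was 58744, 23723 and 95153 CPM. Tfam KO 2 was thus the lowest of all livers, while Tfam KO 3 lay inside the control range. In bulk tissue, fewer hepatocytes and less RNA per hepatocyte cannot be told apart. Levels below are CPM normalised with the trimmed mean of M values (TMM).

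The 47 enzymes took 0.777% to 1.08% of all counts in control livers, 0.648% to 0.750% in Mfn DKO livers and 0.581% to 0.713% in Tfam KO livers. Both knockout ranges lay wholly below the control range. Per transcript length (TPM, a level scaled to length), Gsta3 was the most abundant GST in controls, at 1069 ± 208 TPM (SD, n = 6). Gstp1, at 1000.0 ± 1015 TPM, ranged from 187 to 2446 TPM between control livers, and was lower in each of the 3 controls with Xist than in each of those without. Ugt2b5 (831 ± 98.8 TPM) and Ugt2b36 (773 ± 69.6 TPM) led the UGT, and differed by less than their spread. Among the SULT, Sult2a8 was at 580.4 ± 266 TPM, Sult2a2 at 564 ± 745 TPM and Sult1a1 at 527 ± 76.2 TPM, differences smaller than their spread. Sult2a2 ran from 0 to 1793 TPM, was near 0 in the controls without Xist, and had a median of 239 TPM, below the 541 TPM of Sult1a1. Ugt2b5 and Ugt2b36 act on steroids and drugs, and Sult2a enzymes on bile acids and steroids.

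**Figure D1:**
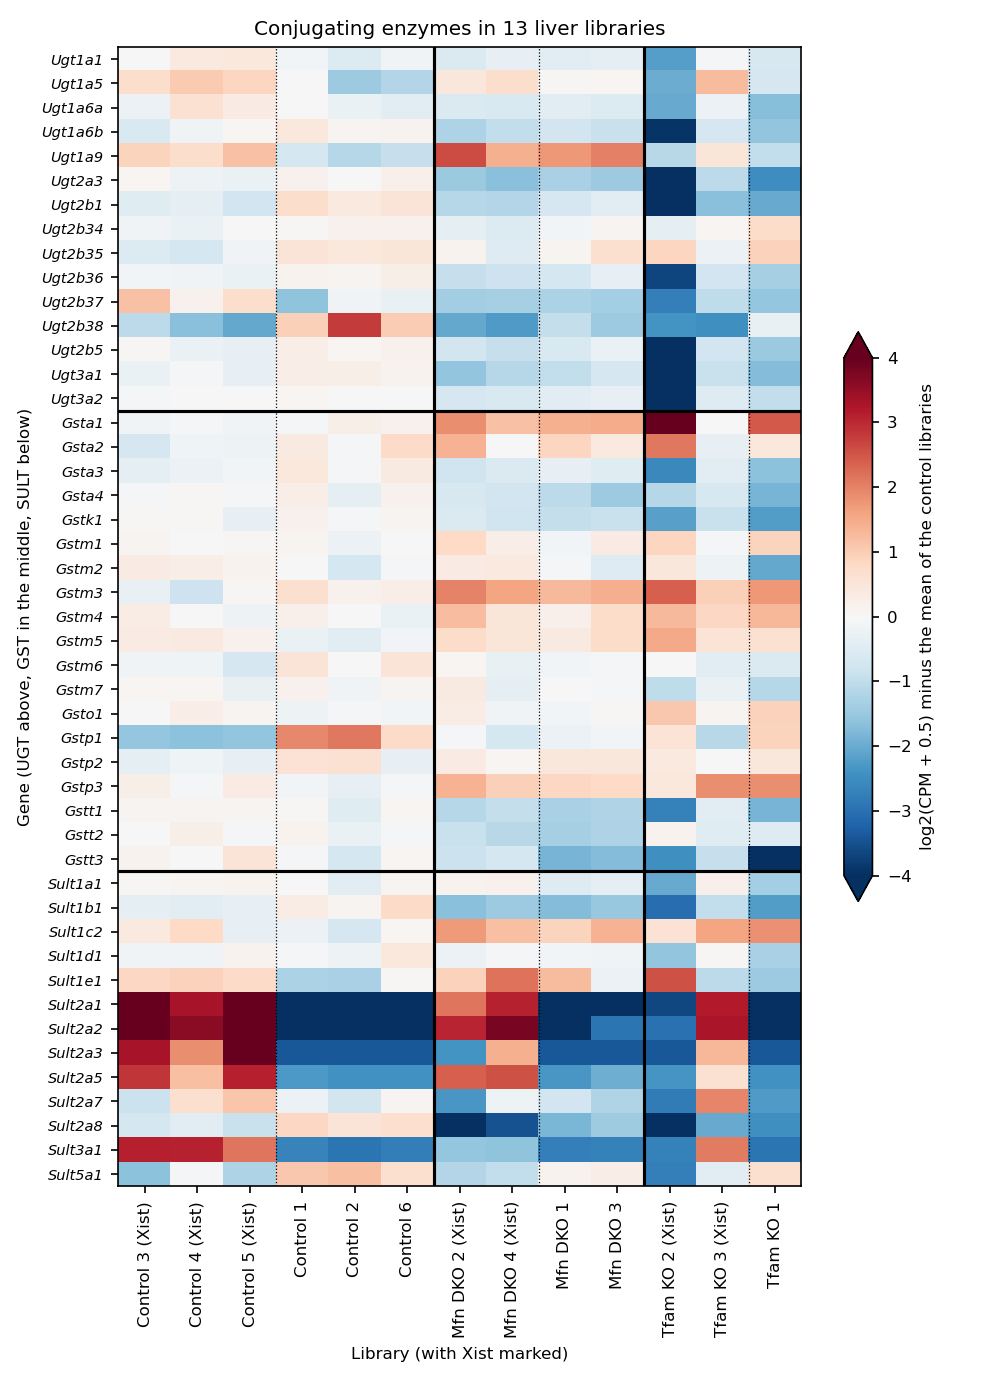
Each row is 1 of the 47 enzymes and each column 1 of the 13 liver libraries, with libraries holding Xist placed first in each group. Colour is log2(CPM + 0.5) minus the mean of the 6 controls, cut at 4 in each direction. Sult2a1, Sult2a2, Sult2a3, Sult2a5 and Sult3a1 split the controls by Xist, and 11 of the 15 UGT have their lowest level of all in Tfam KO 2.

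Which enzymes follow the loss of both mitofusins was asked by setting Mfn DKO livers against controls. Called means an adjusted p of 0.05 or less by edgeR's quasi-likelihood test with Benjamini-Hochberg adjustment over all 17024 genes tested. Of the 47 enzymes 11 were called, 6 higher and 5 lower, where 9.87% of all genes tested were called (5.23% higher and 4.64% lower). The risers were Gstm3, Gstm4, Gstp3, Ugt1a9 and Sult1c2, beside Gsta1, whose choice rested on its level in knockouts, and the fallers were Gsta4, Gstk1, Gstt1, Gstt2 and Sult1b1. Among the 46 enzymes at 1 CPM or more in controls, 10 were called, 5 higher and 5 lower. The median log2 fold change was -0.57 over the enzymes and 0.02 over all genes. Over the 7 hepatocyte markers it was -0.35, with 0 called. By family, 8 of 19 GST (7 besides Gsta1), 1 of 15 UGT and 2 of 13 SULT were called. All Mfn DKO livers lay above all controls for 6 enzymes and below them for 12, where this held for 8.95% and 10.3% of all genes.

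The Mfn DKO count depended on which libraries shared the fit. For the fits below the share of all genes called was not counted, so they show only how the count varied. With the 2 groups alone 24 enzymes were called (7 higher, 17 lower), and without Tfam KO 2 the count was 21 (7 higher, 14 lower). Without Mfn DKO 1, 2, 3 or 4 it was 5, 4, 4 and 5, and without control 1, 2, 3, 4 or 6 it was 6 or 7. Gstm3 and Gstt2 were called in every fit that left out 1 library.

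Tfam KO livers were compared with the same controls, to ask which enzymes follow the loss of Tfam. Here 23 of the 47 were called, 7 higher and 16 lower, where 29.3% of all genes tested were called (18.1% higher and 11.3% lower). The median log2 fold change was -0.78 over the enzymes and 0.03 over all genes. Over the 7 hepatocyte markers it was -0.89, with 3 called lower, so the fall is not shown to be particular to the enzymes. Among the UGT 8 of 15 were called, all lower, among the GST 12 of 19 (6 higher, Gsta1 among them, and 6 lower), and among the SULT 3 of 13 (1 higher, 2 lower). Among the 46 enzymes at 1 CPM or more in controls, 22 were called, 6 higher and 16 lower. Every Tfam KO liver lay below every control for 13 enzymes and above for 4, against 10.2% and 10.7% of all genes. Of the 16 that fell, Tfam KO 3 was the highest of the 3 knockouts for 16, and Tfam KO 2 the lowest for 12.

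Without Tfam KO 1 the Tfam count fell to 13 (7 higher, 6 lower), without Tfam KO 2 it was 18 (5 higher, 13 lower), and with the 2 groups alone it was 13 (6 higher, 7 lower). The share of all genes called was not counted in these fits either. Libraries scaled to their total counts in place of TMM put the median of all genes at 0.21 for Mfn DKO and 0.46 for Tfam KO. The median of the enzymes was then -0.37 and -0.44, against -0.57 and -0.78 with TMM. The called enzymes were then 6 higher and 4 lower, and 11 higher and 15 lower, again without the share of all genes. Besides Gsta1, 8 enzymes were called in both knockouts: Gstm3, Gstm4, Gstp3 and Sult1c2 higher in both, and Gsta4, Gstk1, Gstt1 and Sult1b1 lower in both. Both comparisons used the same controls, and the share of all genes called in both was not counted.

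**Figure D2:**
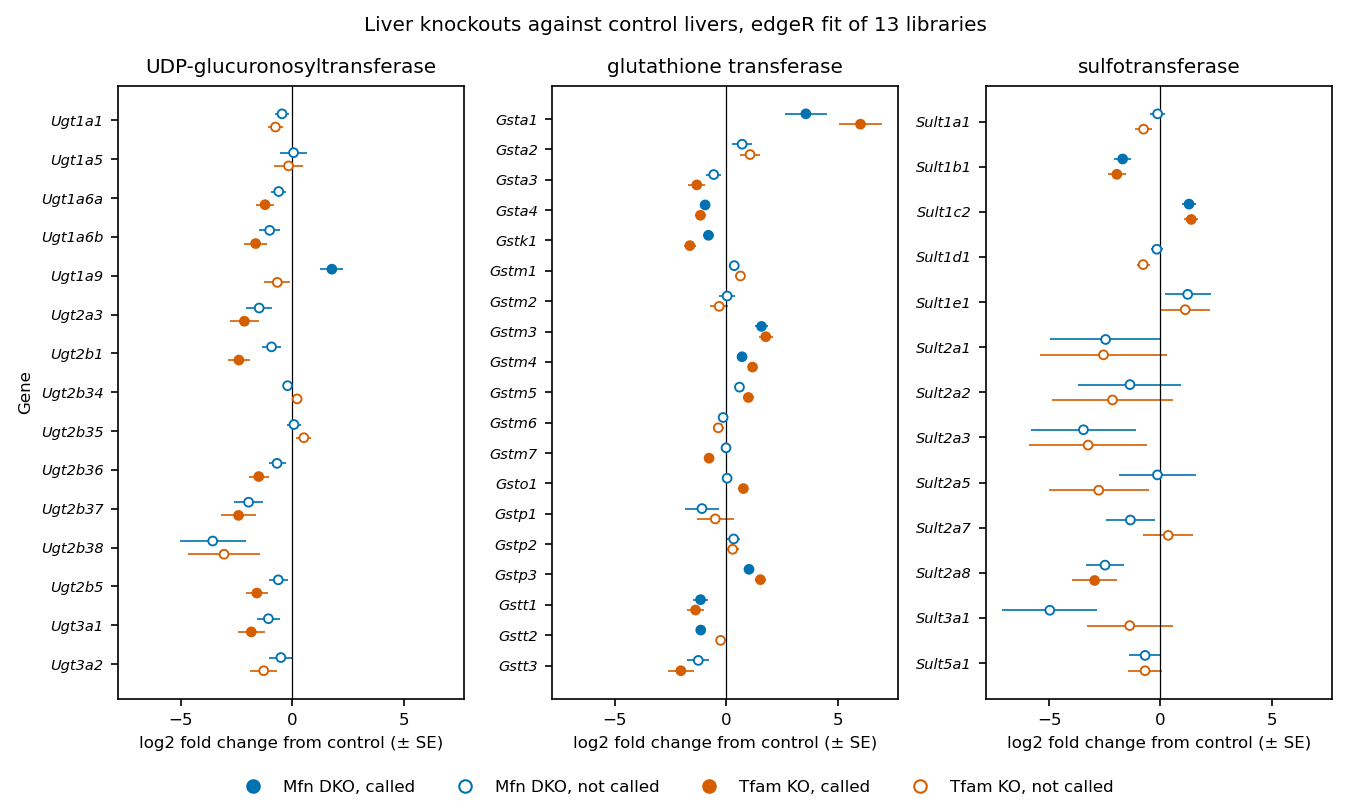
Points are log2 fold changes from control livers with their standard errors, for Mfn DKO (blue, n = 4) and Tfam KO (orange, n = 3) against 6 controls, and filled points were called. In the UGT panel the 8 filled orange points all lie left of 0, and the only filled blue point is Ugt1a9 at 1.77.

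Of the 7 mu class GST, 2 rose in Mfn DKO livers, and 3 rose and 1 fell in Tfam KO livers. Gstm3, a mu class enzyme, had a lowest, median and highest level of 5.98, 12 and 17.6 CPM in controls (each control trio below is in that order), against 28.1, 45.8, 31.6 and 34.2 CPM in Mfn DKO 1 to 4 and 37.8, 60.0 and 21.9 CPM in Tfam KO 1 to 3. Every knockout liver was above every control. The log2 fold change was 1.58 (SE 0.29, adjusted p = 0.00675) in Mfn DKO and 1.77 (SE 0.31, adjusted p = 0.00238) in Tfam KO livers. Gstm4 was at 18.3, 22.3 and 27.5 CPM in controls, 25.5, 52.9, 37.1 and 31.4 CPM in Mfn DKO livers and 56.3, 56.1 and 40.2 CPM in Tfam KO livers. Mfn DKO 1 lay inside the control range, and no Tfam KO liver did. Its log2 fold changes were 0.70 (SE 0.19, adjusted p = 0.0345) and 1.17 (SE 0.20, adjusted p = 0.00216), and the Mfn DKO call held in 5 of 13 fits without 1 library (without control 3, Mfn DKO 1 or any Tfam KO liver), the change being 0.47 without Mfn DKO 2.

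Gstm5 was at 5.10, 7.44 and 9.31 CPM in controls, 9.40, 12.3, 12.2 and 10.4 CPM in Mfn DKO livers and 11.4, 21.6 and 10.8 CPM in Tfam KO livers. All 7 knockout livers lay above the controls, although only the Tfam KO change passed the test, at 0.98 (SE 0.24, adjusted p = 0.00922), and it was 0.59 (adjusted p = 0.0776) without Tfam KO 2. Gstm1, the most abundant of the class per length, was at 546, 661 and 699.9 CPM in controls, 602, 1133, 809.6 and 778 CPM in Mfn DKO livers and 1213, 1189 and 622 CPM in Tfam KO livers. Tfam KO 3 was within the control range, and neither change was called (log2 fold change 0.63, adjusted p = 0.0506 in Tfam KO livers). Gstm7 went the other way in Tfam KO livers, with 22.0, 23.9 and 40.8 CPM against 39.7, 51.8 and 55.8 CPM in controls, a log2 fold change of -0.78 (SE 0.21, adjusted p = 0.0157). Its call was lost without Tfam KO 1 or 2 (-0.66 without Tfam KO 2) and with total counts in place of TMM (adjusted p = 0.0938). Gstm2 and Gstm6 were not called in either knockout.

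Outside the mu class, Gstp3 of the pi class was at 16.3, 19.7 and 26.1 CPM in controls, 37.1, 55.3, 36.7 and 40.5 CPM in Mfn DKO livers and 76.8, 27.9 and 76.7 CPM in Tfam KO livers. All knockout livers were above the controls, Tfam KO 2 by the least. Its log2 fold changes were 1.01 (SE 0.24, adjusted p = 0.0225, lost without control 1, Mfn DKO 2 or Mfn DKO 4) and 1.53 (SE 0.26, adjusted p = 0.00209). Gsta1, an alpha class enzyme, held 2 to 8 counts in each control library, 53, 87, 58 and 48 counts in the Mfn DKO livers and 170, 1297 and 4 counts in the Tfam KO livers. Tfam KO 3 thus stayed at the control level while Tfam KO 2 was the highest of all. As a description of a gene chosen on these levels, the fitted log2 fold changes were 3.57 (SE 0.93, adjusted p = 0.0317) and 6.02 (SE 0.98, adjusted p = 0.00169), the second being 3.84 without Tfam KO 2. The Mfn DKO call on Gsta1 held in 4 of 13 fits without 1 library, those without control 2 or a Tfam KO liver. Of the 100-base stretches of the Gsta1 transcript, 81.8% also occur in another gene, Gsta2 among them, so its reads may be shared with its neighbours. Gsta2 was at 14, 46.4 and 8.25 CPM in Tfam KO livers against 6.31 to 18 CPM in controls and was not called. Gsto1, of the omega class, was at 198, 220.1 and 112 CPM in Tfam KO livers against 89.0, 102 and 124 CPM in controls, a log2 fold change of 0.76 (SE 0.19, adjusted p = 0.0102), or 0.58 (adjusted p = 0.0626) without Tfam KO 2.

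Other GST fell. Gstk1, the kappa class enzyme of mitochondria and peroxisomes, was at 116, 151 and 164 CPM in controls, 75.8, 98.0, 78.5 and 83.3 CPM in Mfn DKO livers and 30.5, 32.1 and 78.7 CPM in Tfam KO livers. No knockout liver reached the lowest control. It fell 1.75-fold (log2 fold change -0.81, SE 0.23, adjusted p = 0.0470) and 3.12-fold (log2 fold change -1.64, SE 0.27, adjusted p = 0.00182), and the Mfn DKO call held in 4 of 13 fits that left out 1 library, those without control 5 or a Tfam KO liver (adjusted p up to 0.131 in the others). Gsta4, which conjugates lipid peroxidation products such as 4-hydroxynonenal, was at 55.5, 73.9 and 89.1 CPM in controls, 35.0, 47.4, 26.5 and 44.4 CPM in Mfn DKO livers and 19.9, 32.9 and 46.7 CPM in Tfam KO livers. Again no knockout liver overlapped the controls, and the log2 fold changes were -0.96 (SE 0.23, adjusted p = 0.0219) and -1.17 (SE 0.26, adjusted p = 0.00623). Without Mfn DKO 1 or 3 the first was not called (adjusted p up to 0.0722).

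The theta class fell: Gstt1 in both knockouts, Gstt2 in Mfn DKO livers and Gstt3 in Tfam KO livers. Gstt2 was at 107, 128 and 153 CPM in controls, 51.7, 69.1, 54.5 and 59.8 CPM in Mfn DKO livers and 90.7, 143 and 93.3 CPM in Tfam KO livers. The Mfn DKO livers lay below all others, while Tfam KO 2 was inside the control range. It fell 2.22-fold in Mfn DKO livers (log2 fold change -1.15, SE 0.16, adjusted p = 0.00116), and in Tfam KO livers the change was -0.26 (adjusted p = 0.254). Tested directly, Tfam KO over Mfn DKO was 0.89 (SE 0.18, adjusted p = 0.0602), which is not called. Gstt1 was at 246, 362 and 371 CPM in controls, 138, 155, 148 and 175 CPM in Mfn DKO livers and 92.9, 51.6 and 250.4 CPM in Tfam KO livers. Tfam KO 3 overlapped the lowest control, and the log2 fold changes were -1.16 (SE 0.33, adjusted p = 0.0433) and -1.39 (SE 0.37, adjusted p = 0.0159). The Mfn DKO call on Gstt1 held in 3 of 13 fits without 1 library, those without a Tfam KO liver (adjusted p up to 0.123 in the others), and the Tfam KO call was lost without Tfam KO 1 (adjusted p = 0.0708). Gstt3 was at 26.7, 45.1 and 61.7 CPM in controls and 2.16, 7.58 and 22.9 CPM in Tfam KO livers, a log2 fold change of -2.05 (SE 0.57, adjusted p = 0.0187, or 0.0817 without Tfam KO 2).

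Gsta3, the most abundant GST per length in controls, was at 1641, 2023 and 2844 CPM in controls, 1687, 1244, 1514 and 1443 CPM in Mfn DKO livers and 689, 359 and 1564 CPM in Tfam KO livers. It fell 2.51-fold in Tfam KO livers (log2 fold change -1.33, SE 0.38, adjusted p = 0.0202), a call lost without Tfam KO 1 (adjusted p = 0.0816). In Mfn DKO livers the change was -0.57 (adjusted p = 0.280). RefSeq promoters on GRCm38.p6, 250 bases before to 50 after the start, were at hand for 40 of the 47 enzymes. Motifs were searched on both strands: TGACNNNGC, the antioxidant response element bound by NRF2, the xenobiotic response element core GCGTG, the hepatocyte factor motifs GTTAAT (HNF1) and CAAAGTCCA (HNF4), and TGATGNAA, bound by ATF4 with C/EBP proteins. TGACNNNGC occurred in 3 of 40 enzymes (7.5%) against 13.99% of all 27025 genes with a promoter: Gsta3 and Gstm7, which fell in Tfam KO livers, and Gstm5, which rose. The promoters of Gsta3 (chr1:21240335-21240634, plus strand) and Gstm5 (chr3:107895604-107895903, plus strand) are shown because they hold this element and moved in opposite directions. Capitals mark TGACNNNGC or GTTAAT, read on either strand.
Gsta3: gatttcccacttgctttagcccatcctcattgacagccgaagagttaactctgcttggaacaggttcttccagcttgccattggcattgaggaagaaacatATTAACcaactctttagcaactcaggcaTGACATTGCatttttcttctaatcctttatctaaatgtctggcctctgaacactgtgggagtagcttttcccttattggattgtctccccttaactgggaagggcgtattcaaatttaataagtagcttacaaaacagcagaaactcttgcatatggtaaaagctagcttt
Gstm5: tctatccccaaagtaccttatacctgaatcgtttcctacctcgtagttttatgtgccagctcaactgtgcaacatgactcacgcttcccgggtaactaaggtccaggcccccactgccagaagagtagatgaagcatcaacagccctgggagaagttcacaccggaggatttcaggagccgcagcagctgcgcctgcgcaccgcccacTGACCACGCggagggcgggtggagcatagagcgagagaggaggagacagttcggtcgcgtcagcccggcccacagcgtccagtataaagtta
In Gsta3 the element begins 121 bases before the start, with GTTAAT on the opposite strand at 149 bases, and in Gstm5 it begins 42 bases before the start. A match describes these letters only and says nothing of binding. GCGTG occurred in 22.5% of the enzymes and 35.2% of all genes, CAAAGTCCA in 2.5% and 0.555%, and TGATGNAA in 2.5% and 4.51%.

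**Figure D3:**
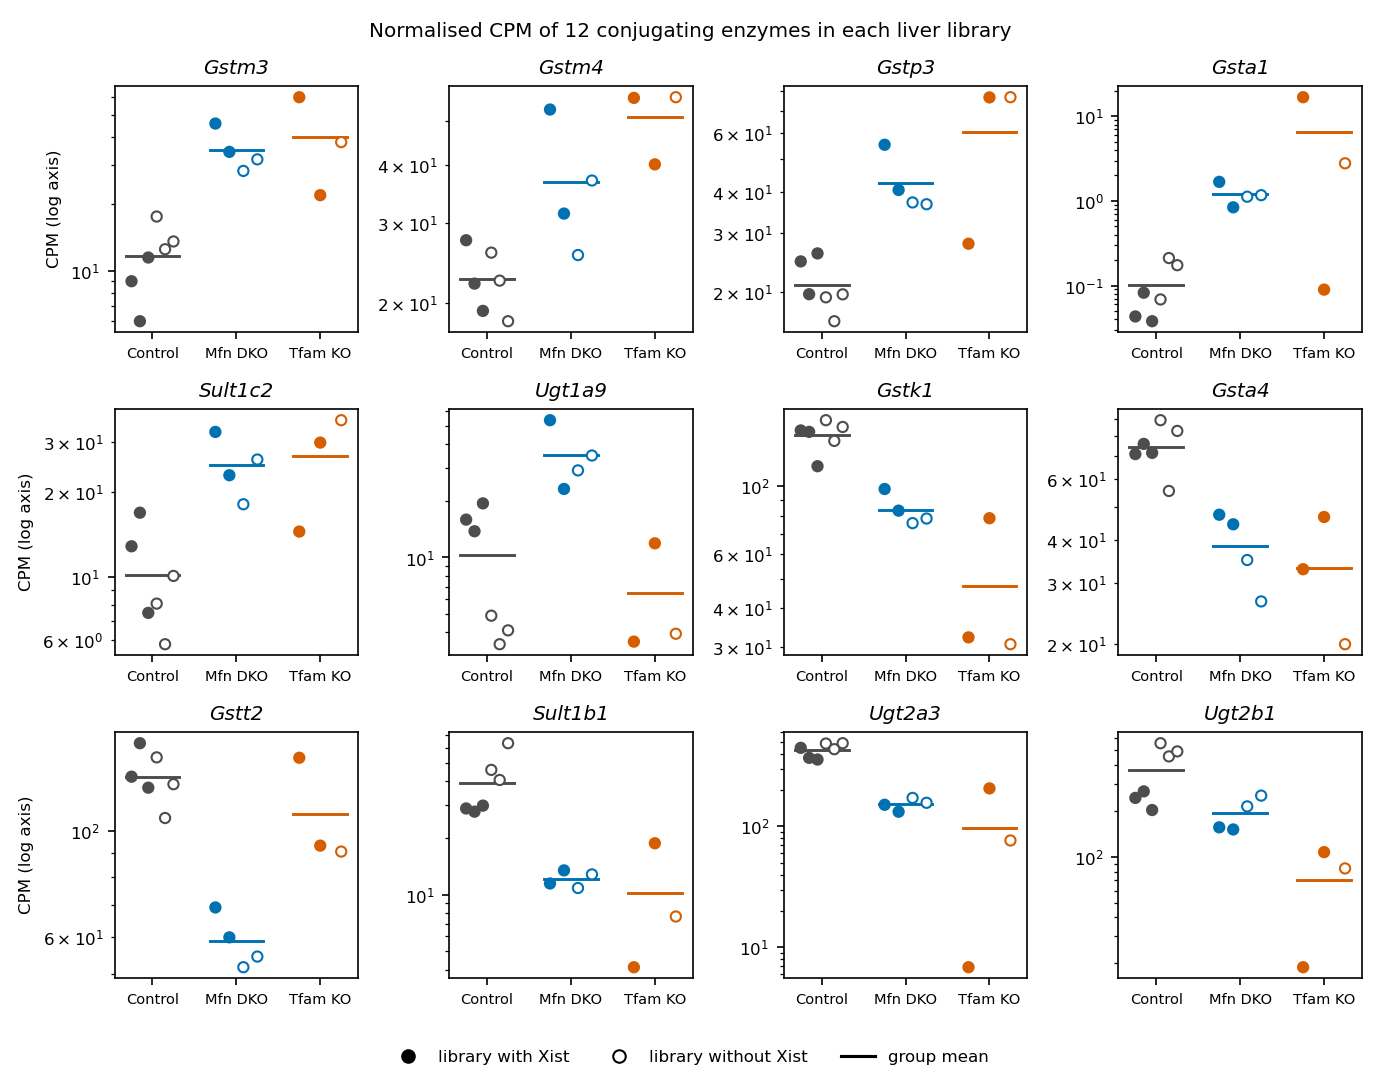
Normalised CPM on a log axis for 12 enzymes in the 6 control, 4 Mfn DKO and 3 Tfam KO livers, with filled circles for libraries with Xist and lines at the group means. Gstm3 and Gstp3 lie above every control in all 7 knockout livers, Gstk1, Gsta4 and Sult1b1 below, and Ugt1a9 is high in the 4 Mfn DKO livers only.

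Of the 15 UGT, 8 fell in Tfam KO livers. With the 2 compared groups alone, 7 of these 8 calls were lost (adjusted p from 0.0571 for Ugt2b36 to 0.0804 for Ugt3a1) with the same direction, and Ugt2b1 was kept (adjusted p = 0.0214). Ugt2a3, which glucuronidates bile acids, was at 358, 441 and 488 CPM in controls, 172, 151, 157 and 132 CPM in Mfn DKO livers and 76.6, 6.86 and 206 CPM in Tfam KO livers. All knockout livers lay below the controls. The log2 fold change was -2.16 (SE 0.66, adjusted p = 0.0285) in Tfam KO livers and -1.49 (SE 0.57, adjusted p = 0.112) in Mfn DKO livers. In fits of the 2 compared groups alone the Tfam KO call was lost (adjusted p = 0.0703) and the Mfn DKO change was called (adjusted p = 1.87e-05). Ugt2b1 was at 203, 362 and 556 CPM in controls, 214, 156, 252 and 151 CPM in Mfn DKO livers and 83.9, 18.9 and 107 CPM in Tfam KO livers. It fell 5.28-fold in Tfam KO livers (log2 fold change -2.40, SE 0.51, adjusted p = 0.00550), and this was the only UGT called in every fit without 1 library. Ugt2b36 (log2 fold change -1.51, adjusted p = 0.0227) and Ugt2b5 (-1.59, adjusted p = 0.0290), the most abundant UGT in controls, fell with no overlap of the groups: Ugt2b5 was at 577, 747 and 866 CPM in controls and 258, 41.7 and 421 CPM in Tfam KO livers.

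Tfam KO 1 decided several of these calls. Without it Ugt2a3, Ugt2b36, Ugt2b5, Ugt3a1 and Ugt1a6b were not called by edgeR, with adjusted p of 0.0959, 0.0567, 0.0753, 0.0978 and 0.0919. Without Tfam KO 2 those 5 were called, at smaller log2 fold changes of -1.60, -1.03, -1.09, -1.30 and -1.13. Ugt3a1, of a family that uses other sugars than glucuronic acid, was at 54.4, 70.6 and 82.8 CPM in controls, 34.7, 22.8, 43.2 and 30.9 CPM in Mfn DKO livers and 20.1, 1.66 and 36.4 CPM in Tfam KO livers. Its log2 fold change in Tfam KO livers was -1.84 (SE 0.61, adjusted p = 0.0387, or 0.0531 with Xist as a covariate), and the call was also lost without control 1, 2, 4 or 6 or Mfn DKO 1. Ugt3a2 was at 451, 461 and 485 CPM in controls and 234, 11.9 and 326 CPM in Tfam KO livers, below every control, yet its change of -1.29 was not called (adjusted p = 0.130, or 0.00805 without Tfam KO 2, when the change was -0.73). Ugt2b34 and Ugt2b35 were not called: Ugt2b34 was at 1021, 463 and 646 CPM in Tfam KO livers against 506, 616 and 689 CPM in controls.

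GTTAAT, a core of the HNF1 motif, occurred in 10 of 40 enzyme promoters (25%) against 8.24% of all genes with a promoter. Among the UGT these were Ugt1a1, Ugt1a6a, Ugt1a9, Ugt2a3 and Ugt3a1. Of these, Ugt1a1 and Ugt1a9 were not called lower. Ugt2b1, Ugt2b5, Ugt2b36 and Ugt2b37, which were called lower in Tfam KO livers, have promoters without it. The Ugt2a3 (chr5:87337146-87337445, minus strand) and Ugt3a1 (chr15:9279579-9279878, plus strand) promoters are shown, since both genes fell in Tfam KO livers, with GTTAAT in capitals on either strand.
Ugt2a3: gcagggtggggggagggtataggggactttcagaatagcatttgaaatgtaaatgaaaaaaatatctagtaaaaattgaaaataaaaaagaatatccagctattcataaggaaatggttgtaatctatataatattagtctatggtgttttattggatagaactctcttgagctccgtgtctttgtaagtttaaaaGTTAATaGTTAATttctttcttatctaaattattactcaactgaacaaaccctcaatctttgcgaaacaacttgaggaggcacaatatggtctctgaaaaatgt
Ugt3a1: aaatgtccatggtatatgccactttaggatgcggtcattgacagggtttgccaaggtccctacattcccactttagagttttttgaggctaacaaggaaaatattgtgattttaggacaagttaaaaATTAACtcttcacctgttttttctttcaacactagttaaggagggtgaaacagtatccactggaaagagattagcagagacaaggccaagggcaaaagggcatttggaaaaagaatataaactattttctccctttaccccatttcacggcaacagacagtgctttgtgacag
Ugt2a3 holds 2 copies, at 54 and 47 bases before the start, and Ugt3a1 holds 1 on the opposite strand at 123 bases.

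Ugt1a9, which acts on phenols, was the only UGT called in Mfn DKO livers. It was at 3.46, 9.35 and 19.4 CPM in controls, 29.0, 53.7, 34.8 and 23.1 CPM in Mfn DKO livers and 3.93, 3.57 and 11.9 CPM in Tfam KO livers. Controls with Xist were at 13.8 to 19.4 CPM and those without it at 3.46 to 4.91 CPM. The 4 Mfn DKO livers, of both kinds, were above all 9 others. It rose 3.42-fold in Mfn DKO livers (log2 fold change 1.77, SE 0.51, adjusted p = 0.0459), a call that held in 4 of 13 fits without 1 library, those without control 5 or a Tfam KO liver (adjusted p up to 0.135 in the others). In Tfam KO livers the change was -0.68 (adjusted p = 0.411), and Tfam KO over Mfn DKO was -2.45 (SE 0.67, adjusted p = 0.101). Ugt1a1, the bilirubin-conjugating enzyme, was at 53.7 to 106 CPM in controls, 52.8 to 62.8 CPM in Mfn DKO livers and 51.3, 17 and 76.1 CPM in Tfam KO livers, and was not called. Ugt1 genes share their last exons, and 57.2% to 100% of the 100-base stretches of these 5 transcripts occur in another gene, so how reads were split among them is uncertain. Ugt1a6a and Ugt1a6b were called lower in Tfam KO livers, at -1.23 (adjusted p = 0.0316) and -1.65 (adjusted p = 0.0330). The former was lost without control 4 or 5 or Tfam KO 1 or 2 (adjusted p up to 0.128), and the latter without control 1, 2 or 6 or Tfam KO 1. Ugt2b37 was at 0.776, 3.46 and 8.23 CPM in controls and 0.819, 0.0779 and 1.43 CPM in Tfam KO livers (-2.42, SE 0.77, adjusted p = 0.0323), a call lost without control 3 or 5 or Tfam KO 1 or 2.

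Of the SULT, Sult1b1, a thyroid hormone sulfotransferase, fell in both knockouts. It was at 27.6, 35.2 and 63.7 CPM in controls, 10.8, 11.5, 12.8 and 13.4 CPM in Mfn DKO livers and 7.65, 4.12 and 18.7 CPM in Tfam KO livers. No knockout liver reached the lowest control, and the fall was 3.24-fold (log2 fold change -1.70, SE 0.37, adjusted p = 0.0141) and 3.88-fold (log2 fold change -1.96, SE 0.42, adjusted p = 0.00555). Without Mfn DKO 1 the former had an adjusted p of 0.0534. Sult1c2 rose, from 5.81, 9.09 and 16.9 CPM in controls to 18.1, 32.5, 26.0 and 22.9 CPM in Mfn DKO livers and 35.8, 14.5 and 29.8 CPM in Tfam KO livers. Tfam KO 2 lay inside the control range, and the log2 fold changes were 1.28 (SE 0.30, adjusted p = 0.0209, up to 0.0693 without Mfn DKO 2 or 3) and 1.39 (SE 0.32, adjusted p = 0.00823). Sult1a1, the main phenol sulfotransferase, was at 274, 389 and 403 CPM in controls and 142, 90.1 and 426 CPM in Tfam KO livers, and was not called. Sult1e1, the estrogen sulfotransferase, had 701 counts in Tfam KO 2 and 6 and 13 in the other Tfam KO livers, against 6 to 125 in controls.

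Several SULT split the control livers by Xist. Of the 47 enzymes, 15 were higher in every control with Xist than in every control without it, and 16 the reverse, where 15.8% and 12.5% of all genes tested did so. Sult2a1 held 21274, 6645 and 47075 counts in the 3 controls with Xist and 0, 2 and 0 in those without. In Mfn DKO 2 and 4, which have Xist, it held 3209 and 6689 counts, in Tfam KO 2 49 and in Tfam KO 3 5617. Sult2a2, Sult2a3, Sult2a5 and Sult3a1 had the same split in controls. Sult3a1, which acts on amines, was at 32.1, 31.6 and 16.2 CPM in the controls with Xist, 0.792 and 0.735 CPM in the Mfn DKO livers with Xist, and 0.0779 and 15.5 CPM in Tfam KO 2 and 3. Both Mfn DKO livers and Tfam KO 2 thus lay below the controls of their kind, while Tfam KO 3 lay just below them.

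Sult2a8, which sulfates bile acids, had the opposite split. It was at 1437, 1160.4 and 1301 CPM in controls without Xist and 495, 602 and 434 CPM in those with it. In Mfn DKO livers it was at 229 and 302 CPM without Xist and 44.1 and 71.1 CPM with it, and in Tfam KO 1, 2 and 3 at 149, 3.60 and 198 CPM. Every knockout liver lay below every control. In Tfam KO livers the log2 fold change was -2.96 (SE 1.0, adjusted p = 0.0413), a call lost without control 1, 2, 4 or 6, Mfn DKO 1 or Tfam KO 1 or 2 (adjusted p up to 0.0922). In Mfn DKO livers it was -2.49 (SE 0.86, adjusted p = 0.0831), and called with Xist as a covariate (adjusted p = 0.0342). Gstp1, an abundant pi class enzyme, was at 1557, 1772 and 700.0 CPM in controls without Xist and 139.9, 131 and 137 CPM in those with it. In Mfn DKO livers it was at 348 and 381 CPM without Xist and 401 and 252 CPM with it, so the 2 kinds overlapped there. The 11 male-biased liver genes of a fixed list summed to 17910.1 to 21607 CPM in controls without Xist. Controls with it were at 5076 to 6581 CPM. Mfn DKO livers were at 5068 and 4769 CPM without Xist and 1580 and 1494 CPM with it. The 11 female-biased genes summed to 101 to 193 CPM and 2369 to 3077 CPM in these controls. Mfn DKO livers were at 158 and 190 CPM, and 2470 and 2309 CPM. Tfam KO 1, 2 and 3 held male-biased sums of 5707, 304 and 3093 CPM and female-biased sums of 106, 775 and 1832 CPM. In each knockout edgeR called 1 male-biased gene, lower, and 0 female-biased genes. The part of these genes in the enzyme levels was not tested. Gstp1 was not called in either knockout, and 52.8% of its 100-base stretches occur in another gene, Gstp2 among them.

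**Figure D4:**
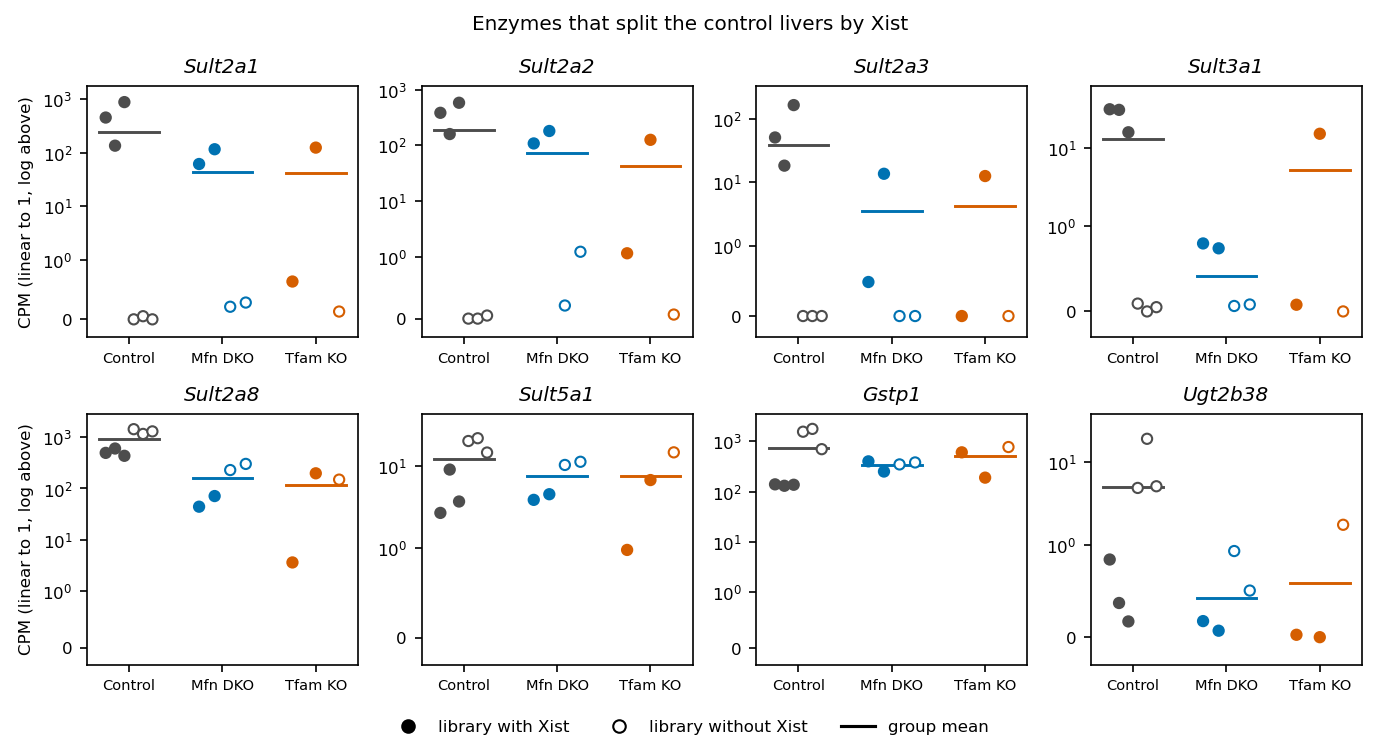
Normalised CPM, linear up to 1 and logarithmic above, of 8 enzymes in each liver, with filled circles for the 7 libraries with Xist. Sult2a1, Sult2a2, Sult2a3 and Sult3a1 are near 0 in every library without Xist, Sult2a8, Sult5a1, Gstp1 and Ugt2b38 are higher in the controls without it, and the Mfn DKO livers of both kinds overlap for Gstp1.

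Sult2a3 (chr7:14122999-14123298, minus strand) and Sult2a5 (chr7:13623717-13624016, plus strand) both split by Xist, and their promoters are shown because each holds GTTAAT once on each strand, in capitals.
Sult2a3: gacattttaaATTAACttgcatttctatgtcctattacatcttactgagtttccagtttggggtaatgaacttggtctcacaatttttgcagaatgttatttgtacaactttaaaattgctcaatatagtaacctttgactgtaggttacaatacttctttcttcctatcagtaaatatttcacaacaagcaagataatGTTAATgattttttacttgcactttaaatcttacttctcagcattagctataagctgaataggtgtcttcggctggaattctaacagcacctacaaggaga
Sult2a5: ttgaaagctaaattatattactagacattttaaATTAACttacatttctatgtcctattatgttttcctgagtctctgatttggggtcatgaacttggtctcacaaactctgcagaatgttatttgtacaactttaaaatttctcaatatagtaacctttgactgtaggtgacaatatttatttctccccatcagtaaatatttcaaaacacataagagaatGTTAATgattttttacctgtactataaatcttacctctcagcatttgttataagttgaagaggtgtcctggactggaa
The matches lie 240 and 51 bases before the start in Sult2a3 and 217 and 28 bases before it in Sult2a5, so the pair keeps the same spacing. Sult2a1, Sult2a2 and Sult2a5 share 11.4% to 34.6% of their 100-base stretches with each other or other genes.

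Within the libraries with Xist, 3 controls against 2 knockouts, edgeR called 0 of the 47 enzymes in either knockout, with 10 (Mfn DKO) and 14 (Tfam KO) at an unadjusted p under 0.05. Within the libraries without Xist, 26 of 44 tested enzymes were called in Mfn DKO (8 higher, 18 lower). Tfam KO 1 is a lone library there, so no count is given for Tfam KO. The share of all genes called was not counted for the fits of this paragraph. All 11 and all 23 enzymes called over the 13 livers had the same sign in both kinds. They were called on these same livers, so this agreement was largely set in advance and is no independent support. When the Xist level entered as a covariate, 15 and 25 were called, and 22 of the 23 Tfam KO calls remained, all but Ugt3a1.

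The Tfam KO and Mfn DKO livers were also compared with each other. EdgeR called 0 of 47 enzymes, where 0.294% of all genes were called (0.106% higher and 0.188% lower). An unadjusted p under 0.05 was reached by 7 enzymes, and DESeq2's Wald test called 5. The 7 had lower means in Tfam KO livers for Ugt1a9, Ugt2b1, Gstk1 and Gstm7, and higher ones for Gsta1, Gsto1 and Gstt2. Groups did not overlap for Gstt2, higher in all Tfam KO livers (5.72% of all genes), and for Ugt1a9 and Ugt2b1, lower in all of them (5.1%). Without Tfam KO 3, 18 were called (3 higher, 15 lower). The share of all genes called was counted neither in that fit nor for the Wald test. An enzyme called in 1 knockout alone is therefore not shown to differ between them.

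The supply of the donors was followed through fixed lists. Of 16 genes of glutathione supply and turnover, 2 rose in Mfn DKO livers (Gclc and Ggct) and 5 rose and 1 fell in Tfam KO livers. Gclc, the catalytic subunit of the rate-limiting step of glutathione synthesis, had log2 fold changes of 0.71 (adjusted p = 0.0232) and 0.63 (adjusted p = 0.0249). Slc7a11, the cystine importer, was at 0.0556 ± 0.0169 CPM in controls (SD, n = 6) and between 0.134 and 135 CPM in Tfam KO livers (log2 fold change 9.62, adjusted p = 0.00130). Of 7 genes of UDP-glucuronic acid supply, Pgm2 rose in both knockouts (0.82, adjusted p = 0.0427, and 1.53, adjusted p = 0.00172) and Ugdh, which oxidises UDP-glucose, in Tfam KO livers (1.17, adjusted p = 0.0211). Of 8 genes of PAPS supply, only Slc35b2, the Golgi PAPS transporter, was called, lower in Tfam KO livers (-0.56, adjusted p = 0.00979).

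Of 23 genes listed as other conjugating enzymes, 3 fell in Mfn DKO livers, and in Tfam KO livers 10 fell and 1 rose. The list also holds the epoxide hydrolases Ephx1 and Ephx2, which do not conjugate. The riser was Gstcd, whose conjugating activity is not shown here. Mgst1, the microsomal GST, fell from 2285 ± 481 CPM (n = 6) to 705 ± 532 CPM (n = 3) in Tfam KO livers (log2 fold change -1.70, adjusted p = 0.00892). Nat1 and Nat2, arylamine acetyltransferases, fell there too (-1.39, adjusted p = 0.00704, and -0.80, adjusted p = 0.00682). Of 9 genes listed as deconjugating enzymes, 3 fell in Mfn DKO and 4 in Tfam KO livers. Most of the list are carboxylesterases, which cleave esters rather than glucuronide or sulfate conjugates. Among them Ces2a had log2 fold changes of -2.28 (adjusted p = 0.0141) and -2.07 (adjusted p = 0.0148) by edgeR. Of 16 transporters that carry conjugates, Abcc4, an efflux pump of the basolateral membrane, rose in both knockouts (2.29, adjusted p = 0.0406, and 4.49, adjusted p = 0.00136). In Tfam KO livers Abcc5, Abcb1a and Abcb1b also rose and Abcc6 fell.

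Of 24 regulators of drug metabolism, 2 rose and 8 fell in Tfam KO livers, and only Foxa2 fell in Mfn DKO livers. Nr1i3, which encodes CAR, was at 67.6 ± 15.0 CPM in controls and between 3.73 and 42.1 CPM in Tfam KO livers (-1.92, adjusted p = 0.0253). Nr1h4, which encodes FXR, fell there as well (-0.75, adjusted p = 0.0131), and Atf4, a stress-response factor, rose (0.96, adjusted p = 0.00570). Of 16 NRF2 readouts that are not transferases, 3 rose in Mfn DKO livers (Hmox1, Gclc and Abcc4) and 11 in Tfam KO livers, and none fell. Hmox1, heme oxygenase, rose from 23.6 ± 4.19 CPM to 46.1 ± 9.69 CPM (0.96, adjusted p = 0.0130) and 63.5 ± 24.8 CPM (1.43, adjusted p = 0.00120). Of 11 readouts of AHR, CAR and PXR, Tiparp rose in Mfn DKO livers, and in Tfam KO livers 3 rose and 1, Por, fell. Cyp2b10, a CAR target, was between 3.10 and 38.0 CPM in Tfam KO livers against 0.945 ± 0.669 CPM in controls (4.23, adjusted p = 0.00275). The summed level of the NRF2 readouts was highest in Tfam KO 2, at 2416 CPM, and at 1314 CPM in Tfam KO 3, within the control range of 1246 to 1408 CPM. The lowest hepatocyte marker sum was in Tfam KO 2 as well, and the part of either in the enzyme levels was not tested.

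Of 8 pericentral hepatocyte genes, 4 (Oat, Glul, Slc1a2 and Cyp2e1) fell in Tfam KO livers, and their list summed to 757 to 6752 CPM there, 4293 to 6548 CPM in Mfn DKO livers and 10357 to 15312 CPM in controls. The 7 periportal genes summed to 2556 to 7499, 8122 to 11679 and 6465 to 10390 CPM in the same order, and none was called by edgeR. The part of zonation in the fall of the enzymes was not tested. Macrophage markers summed to 385 to 696 CPM in controls, 476 to 1122 CPM in Mfn DKO livers and 216 to 697 CPM in Tfam KO livers, and bile duct markers to 32.8 to 69.4, 55.1 to 103.8 and 27.3 to 127.8 CPM. Endothelial, stellate and lymphocyte markers summed to at most 351, 344 and 36.5 CPM in any liver. The part of these cells in the results was not tested.

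Tfam KO islets were set against control islets to see the same enzymes in a tissue that makes few of them. In control islets 14 of the 47 reached a mean of 1 CPM and 16 had no count in any library. Of 27 that could be tested, 14 were called, 12 higher and 2 lower (Gstt2 and Sult1d1), where 20.9% of all 19752 genes tested were called (11.6% higher and 9.29% lower). The median log2 fold change was 0.63 over the 27 enzymes and -0.01 over all genes. Of the 17 GST tested, 11 rose, while none of 6 UGT was called by edgeR (2 at an unadjusted p under 0.05). The median log2 fold change was 0.78 over these GST and 0.71 over these UGT, and all 6 UGT had a positive change. Ugt2b34 was the only UGT with a mean of 1 CPM or more in control islets. The families are therefore not shown to differ here. With total counts in place of TMM, which moved the median of all genes to 0.20, 18 were called, all higher. The share of all genes called in that fit was not counted.

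Markers of the islet's cell types moved in the same libraries. All 5 beta cell markers (Ins1, Ins2, Mafa, Slc2a2 and Ucn3) were called lower, and their summed level lay between 171545 and 270497 CPM in control islets and between 91277 and 125996 CPM in Tfam KO islets, without overlap. Ins2, an insulin gene, was at 182297 ± 26739 CPM (SD, n = 8) and 94926 ± 9532 CPM (n = 6). Both delta cell markers, Sst and Hhex, were called lower, with overlapping sums of 2278 to 7257 CPM and 2378 to 3461 CPM. The 3 alpha cell markers (sums of 23090.1 to 102367 CPM in controls and 36976 to 51666 CPM in KO islets) and the 7 exocrine markers (929 to 8985 CPM and 1406 to 16463 CPM) had adjusted p of 0.194 or more by edgeR. No marker of these 4 lists was at 0 throughout a group. Cd68 of macrophages, Stab2 of endothelial cells and Col1a1 of stellate cells were called higher, each the only 1 called of 3, 5 and 5 tested in its list, and the sums of those lists overlapped between the groups. Cd79a of lymphocytes was called lower, and the summed lymphocyte level was 13.7 to 21.2 CPM and 5.92 to 8.26 CPM. The part of any of these in the islet enzyme levels was not tested.

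Gsto1, the omega class enzyme, was at 6.78, 9.23 and 10.5 CPM in 8 control islets and 23.2, 29.0 and 44.2 CPM in 6 Tfam KO islets (lowest, median, highest). All KO islets lay above all controls, which held for 4 of the 27 (Gstm1, Gstm2, Gsto1 and Sult1c2) and 4.83% of all genes, and for 0 and 2.66% below. Gsto1 rose 3.50-fold (log2 fold change 1.81, SE 0.13, adjusted p = 4.66e-08). Sult1c2 was at 4.78, 8.77 and 11.4 CPM and 20.8, 25 and 29.4 CPM (1.58, SE 0.15, adjusted p = 1.42e-06), again without overlap. Gstm1 was at 38.4, 55.2 and 70.3 CPM and 91.5, 99.3 and 108 CPM (0.85, SE 0.10, adjusted p = 1.48e-05). Gstm3, Gstp2 and Gstp3, among the 11 GST that rose, stayed below 1 CPM in every islet library. Of the 100-base stretches of Gstp2, 63.5% occur in another gene, Gstp1 among them.

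Of 16 enzymes called in Tfam KO livers and tested in islets, 7 were called in both tissues. Gstm3, Gstm4, Gsto1, Gstp3 and Sult1c2 were higher in both, and Gstm7 and Gstt1 were lower in liver and higher in islets. Gstm7 was at 2.36, 3.53 and 6.03 CPM in control islets and 5.74, 6.53 and 7.33 CPM in Tfam KO islets (0.84, SE 0.15, adjusted p = 0.000804), against -0.78 in liver. Gstt1 was at 23.8, 30.7 and 41.2 CPM and 35.0, 38.6 and 39.7 CPM in islets, a change of 0.29 (SE 0.09, adjusted p = 0.0239), against -1.39 in liver. The share of all genes called in both tissues was not counted. The tissues were fitted separately, and the difference between them was not tested.

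**Figure D5:**
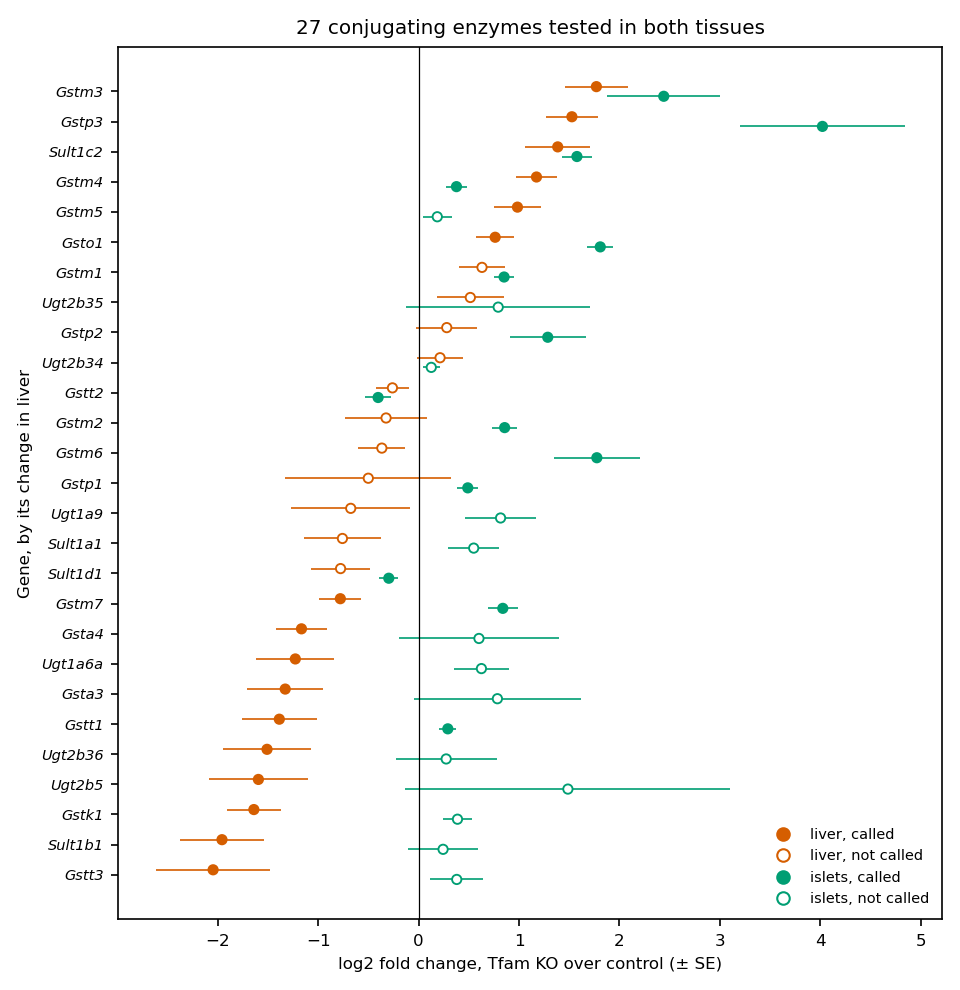
Log2 fold changes with standard errors of the 27 enzymes tested in both tissues, Tfam KO against control, in liver (orange, 3 against 6) and islets (green, 6 against 8), ordered by the change in liver. Filled points were called: Gstm3, Gstp3, Sult1c2, Gstm4 and Gsto1 are filled on the right of 0 in both, and of the islet points only Gstt2 and Sult1d1 lie left of 0.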

How the data were processed

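RNA of 13 livers and 14 Tfam islet samples was sequenced as 151-base read pairs, per the labels' protocols. The authors deposited, per the file headers, a raw count, a TPM and a CPM value for each of 55487 genes. The submitters' processing notes name STAR 2.6.1b, RSEM 1.3.1, featureCounts and DESeq2, among others, and the build GRCm38, without saying which made the counts. The 47 enzymes and all lists were chosen with earlier results of these data known. Counts were tested with edgeR 4.0.16 in R 4.3.3 (quasi-likelihood F-test, TMM, filterByExpr, Benjamini-Hochberg over all genes): all 13 livers in 1 fit with a mean per group, and the islets with sex as a term. DESeq2 1.42.0 was an alternative. A gene's standard error is its log2 fold change over the root of F. With 3 to 6 livers a group, p-values measure the spread between these samples only.

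Named enzymes were the called ones with at least 5 CPM in the higher group (up to 12 a direction by size), the 2 of each family highest in control TPM, and those nearest the 1 CPM threshold. From each pathway list, up to 4 called genes with the smallest adjusted p were to be named. The other enzymes named, Abcc6, Nr1i3, Por, Tiparp and the pericentral genes were chosen after their values were seen. Tests were checked on simulated data with the same spread for every gene, no Xist split and no library standing apart. That check does not cover what such libraries do to the calls. Shared 100-base stretches were counted over GENCODE M21 transcripts. Replicate numbers did not pair the livers, as described with the alternatives. Clec16a islets were not used here.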

Additional observations from a re-analysis of the deposited data

Results flagged for a closer look

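In 94 groups of control or Mfn DKO livers (1 enzyme in 1 group each), 6 had a library far from the rest by Dixon's test, where chance flags about 1 in 20 groups. Control 2 was the lowest control for Gstm1 (546 CPM, the next at 643 CPM), Gstt1 (246 CPM, the next at 355 CPM) and Sult1a1 (274 CPM, the next at 375 CPM), and the highest for Ugt2b38 (18.8 CPM, the next at 5.04 CPM). Control 5 was the highest control for Sult2a3 (164 CPM, the next at 50.7 CPM). Mfn DKO 4 was the highest Mfn DKO liver for Sult2a3 (13.6 CPM, the next at 0.483 CPM). Control 5 and Mfn DKO 4 hold Xist, as do all livers in which Sult2a3 exceeded 1 CPM. Tfam KO livers, a group of 3, were not tested in this way.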

How the results depend on the processing

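Counts of called enzymes (11 in Mfn DKO, 23 in Tfam KO, 0 between the knockouts, 14 in islets) depended on the alternatives below. With each library left out in turn, the counts ran from 4 to 21 in Mfn DKO, from 13 to 31 in Tfam KO, from 0 to 18 between the knockouts and from 11 to 15 in islets. Fits of the 2 compared groups gave 24 and 13. The share of all genes called was not counted for these alternatives. Only libraries with Xist gave 0 and 0, and only those without gave 26 in Mfn DKO. These fits were chosen after seeing the data, as were total counts, which gave 3 between the knockouts. There, DESeq2's Wald test gave 5 and the Xist covariate 1. A 2-fold minimum left 6 in islets. A replicate block gave 2 and 3. Replicate numbers do not pair the livers: residuals of same-numbered libraries correlated between -0.343 and 0.350 (median 0.0873, 10 pairs). For the fold changes of single called enzymes, 612 of 778 alternative values kept direction and side of the threshold, 166 lost the call with the same direction, and none reversed. The cause was not tested.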
